A study of Mus musculus with 6 samples.

Results

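The alpha and beta crystallin genes were followed in mouse retina as 8 genes, namely Cryaa, Cryab, Cryba1, Cryba2, Cryba4, Crybb1, Crybb2 and Crybb3. They were taken as every probe set that the platform annotation gave to 1 of these symbols, which found 10 of 45037 probe sets on the array, 3 of them for Cryab and 1 for each of the other genes, and 8 of 18193 genes named by a probe set of a single symbol. The genes were chosen by their signal difference between the groups on these same arrays, so that difference is described here and not tested. The mice were 21 days old, and 6 expression arrays were hybridised, each with RNA from 2 pooled retinas of mixed sex. The 3 arrays labelled knockout came from ERRβ -/- mice of a mixed C57Bl/6 x Sv129 background, and the 3 wildtype arrays from C57Bl/6 mice. ERRβ is the orphan nuclear receptor encoded by Esrrb. Genotype and strain background differ together, so they cannot be told apart in any difference below. Nothing in the labels says that the pools came from separate litters, so errors describe the spread between these samples, which may be technical.

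Crystallins are the soluble proteins that fill the fibre cells of the lens and give it transparency and refractive power. The alpha crystallins belong to the small heat shock proteins and act as chaperones that hold unfolding proteins in solution. The beta crystallins share a Greek key fold with the gamma crystallins, assemble with each other into oligomers, and are sorted by charge into acidic (βA) and basic (βB) members. Several of them are also known outside the lens, Cryab in glia, muscle and heart, and Cryaa, Cryba1 and Crybb2 in retina.

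Before the values, 4 promoters are shown, because their genes include the neighbouring pair Cryba4 and Crybb1 and because each carries the letters TGCTGA, the core of the element bound by the Maf family, the transcription factors best known for driving lens crystallin genes. The sequences are those of RefSeq on GRCm38.p6, from upstream of the annotated start to just past it, 5′ to 3′. Capitals mark TGCTGA, the TATA box letters TATAAA, and the core of the ERR response element AAGGTCA, read on either strand. Cryaa lies at chr17:31677681-31677980, plus strand, Cryba1 at chr11:77725244-77725543, minus strand, Cryba4 at chr5:112252469-112252768, minus strand and Crybb1 at chr5:112255570-112255869, plus strand.
Cryaa: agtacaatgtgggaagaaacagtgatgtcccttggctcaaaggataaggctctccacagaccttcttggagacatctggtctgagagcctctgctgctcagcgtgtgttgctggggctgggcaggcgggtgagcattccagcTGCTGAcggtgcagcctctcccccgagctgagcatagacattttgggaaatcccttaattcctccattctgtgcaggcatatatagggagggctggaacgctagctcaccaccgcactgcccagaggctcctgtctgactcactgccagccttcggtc
Cryba1: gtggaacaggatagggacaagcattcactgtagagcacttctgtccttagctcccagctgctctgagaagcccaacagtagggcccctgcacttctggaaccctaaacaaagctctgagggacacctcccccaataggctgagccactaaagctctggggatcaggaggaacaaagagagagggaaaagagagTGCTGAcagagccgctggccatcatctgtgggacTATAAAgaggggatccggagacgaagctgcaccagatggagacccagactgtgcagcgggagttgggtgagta
Cryba4: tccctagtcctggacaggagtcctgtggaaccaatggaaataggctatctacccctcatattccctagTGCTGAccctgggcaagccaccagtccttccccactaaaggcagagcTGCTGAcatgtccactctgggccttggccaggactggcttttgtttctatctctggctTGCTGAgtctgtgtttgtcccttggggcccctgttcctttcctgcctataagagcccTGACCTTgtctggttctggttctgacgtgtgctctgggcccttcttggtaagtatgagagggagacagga
Crybb1: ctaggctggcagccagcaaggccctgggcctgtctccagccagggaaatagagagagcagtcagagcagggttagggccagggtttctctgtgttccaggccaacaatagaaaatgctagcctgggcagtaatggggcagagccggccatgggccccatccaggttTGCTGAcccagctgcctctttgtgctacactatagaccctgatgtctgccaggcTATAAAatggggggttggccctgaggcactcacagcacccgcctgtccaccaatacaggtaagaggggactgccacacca
The table of promoters held 7 of the 8 genes, and Cryab was the one it did not hold. TGCTGA was found on either strand in 6 of the 7, against 19.5% of all 32841 promoters of that length, and Crybb2 was the one in which it was not found. Cryba4 held it at 3 places, and 2.35% of all promoters held it at more than one. TATAAA was found in Cryba1, Cryba2 and Crybb1 (3 of 7, against 13.6% of all). AAGGTCA was found once, as TGACCTT in Cryba4 (1 of 7, against 4.72% of all), and the heat shock element core GAANNTTC, in which N is any base, was found in 0 of 7 (7.86% of all). None of these matches overlapped another. A match is a run of letters and not a measured binding site.

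The arrays were not on one scale. Replicates 1 and 2 of each group had been scaled to a trimmed mean signal near 500 and replicate 3 of each group to one near 150, so differences are given over all 6 arrays with this scaling batch as a block in limma, and again within each batch. The targeted gene, Esrrb, had 3435, 4012 and 2397 in labelled knockout arrays on its brightest probe set, against 2951, 2934 and 1771 in wildtype arrays, and so was not lower (log2 difference 0.37, limma adjusted p = 0.0852 over all probe sets without a filter). No source used here places that probe set inside or outside the deletion, so it does not check the labels. For Actb, the 3′ probe set over the 5′ one, which rises as RNA degrades, gave 1.82, 1.66 and 1.67 in labelled knockout arrays 1, 2 and 3, against 1.83, 1.89 and 2.32 in wildtype arrays 1, 2 and 3. That of Gapdh ran from 0.719 to 0.731, against 0.712 to 0.779, with no split between the groups. The part of RNA quality in the differences below was not tested. A retina is a bulk sample, in which more cells of a type and more RNA per cell cannot be told apart.

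All 8 genes had more signal in every array labelled knockout than in any wildtype array, whatever its scale. The lowest labelled knockout array exceeded the highest wildtype array by 2.31 times for Cryab and by 10.5 times for Crybb1, with the other genes between. In the fit the 8 differences ran from 1.46 to 4.13 on the log2 scale, with a median of 3.32, against a median of 0.02 over all 12536 genes. Of the 10 probe sets, 9 passed the filter on dim signal and all 9 were called higher, where 1.04% of all 27022 kept probe sets were called higher, 1.22% lower and 2.25% in either direction (609 probe sets, or 200 with a replicate block). The genes were chosen for this contrast, so nothing is read from that count. Non-overlap of the groups held for 9 of the 10 probe sets, where it held for 1.23% of all 45037 and 0.37% of those kept. Within each scaling batch the labelled knockout arrays were above the wildtype arrays for the same 9, where this held for 12.8% of all probe sets and 16.4% of those kept.

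**Figure D1:**
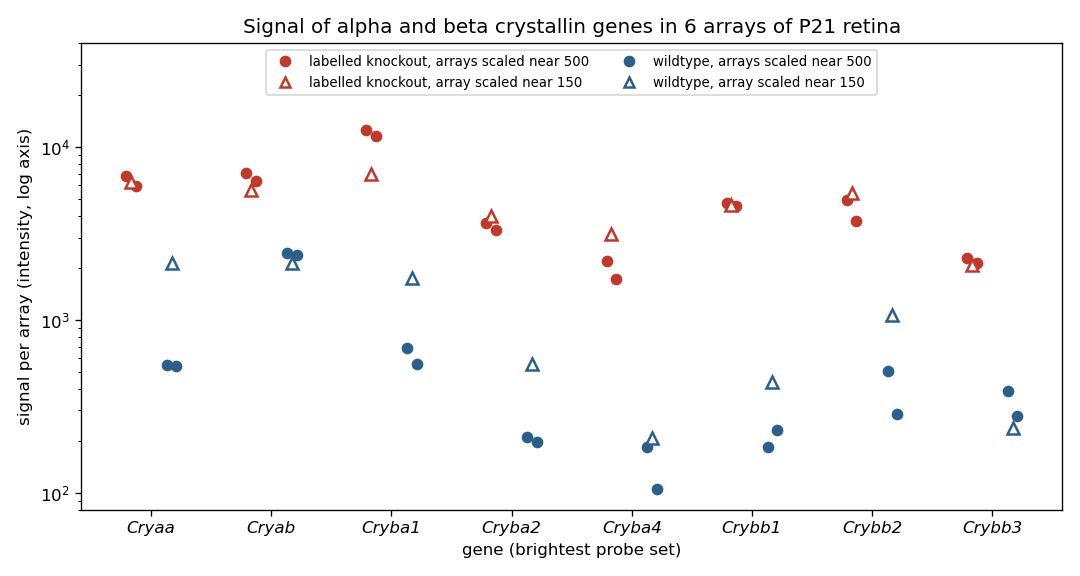
Signal of the brightest probe set of each gene in every array, on a log axis, with labelled knockout arrays in red on the left and wildtype arrays in blue on the right of each gene. Circles are the arrays scaled near 500 and open triangles the array scaled near 150. For each gene all 3 labelled knockout arrays lie above all 3 wildtype arrays, and for Cryaa, Cryba1, Cryba2, Crybb1 and Crybb2 the wildtype triangle lies clearly above the wildtype circles.

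Of the alpha crystallins, Cryaa is known above all from lens, while Cryab is the widely expressed one and is induced by stress. Cryaa (probe set 1452486_a_at) read 6805, 5966 and 6250.2 in labelled knockout arrays 1, 2 and 3, against 549, 542 and 2138 in wildtype arrays 1, 2 and 3. The groups did not overlap, and wildtype array 3 stood well above the other wildtype arrays although it was scaled lower. The log2 difference was 2.88 ± 0.32 (SE, n = 3 per group), with 3.55 within the arrays scaled near 500 and 1.55 within those scaled near 150.

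Cryab showed the smallest difference of the 8 genes and the most even one. Its brightest probe set, 1434369_a_at, read 7099, 6390.2 and 5661 in labelled knockout arrays, against 2447, 2372 and 2135 in wildtype arrays. The log2 difference was 1.46 ± 0.074 (SE, n = 3 per group), a fold of 2.75, with 1.48 near 500 and 1.41 near 150. Both groups were narrow on this probe set, including the arrays of the lower scale. A second probe set, 1416455_a_at, read 4247, 4081 and 4937 in labelled knockout arrays and 1481, 1373 and 1689 in wildtype arrays, a log2 difference of 1.55 ± 0.073 (SE, n = 3 per group) that was 1.55 in both batches. The third, 1435837_at, read 39.6, 9.65 and 16.9 in labelled knockout arrays and 44.1, 14.6 and 14.2 in wildtype arrays. It lay under the median of every array and under the filter, its groups overlapped, and its log2 difference of -0.17 ± 0.81 (SE, n = 3 per group) is not informative.

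The acidic beta crystallins Cryba1, Cryba2 and Cryba4 had log2 differences between 3.52 and 3.85. Cryba1, whose protein has also been studied in retinal astrocytes and pigment epithelium, had 12555, 11617 and 6961 in labelled knockout arrays (1450671_at), against 688, 556 and 1744 in wildtype arrays. Its groups did not overlap, but array 3 was the dimmest of the labelled knockout arrays and the brightest of the wildtype arrays. The log2 difference was 3.52 ± 0.36 (SE, n = 3 per group), with 4.29 near 500 and 2.00 near 150, the widest gap between batches among the 8 genes. Cryba2 had 3639, 3318 and 3973 in labelled knockout arrays (1419011_at), against 211, 197 and 553 in wildtype arrays, a log2 difference of 3.68 ± 0.21 (SE, n = 3 per group; 4.09 near 500 and 2.85 near 150). Its 3 labelled knockout arrays were alike in signal in spite of their different scale. Cryba4 had 2194, 1725 and 3164 in labelled knockout arrays (1420686_at), against 183, 105 and 208 in wildtype arrays. Here array 3 was the brightest of each group, and the log2 difference of 3.85 ± 0.19 (SE, n = 3 per group) was 3.81 near 500 and 3.92 near 150.

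Among the basic beta crystallins Crybb1 had the largest difference of the 8 genes. It read 4723, 4594 and 4626 in labelled knockout arrays (1418306_at), against 184, 232 and 436 in wildtype arrays. The labelled knockout arrays hardly differed from each other, and the gap to wildtype was wide in both batches. The log2 difference was 4.13 ± 0.20 (SE, n = 3 per group), a fold of 17.5, with 4.49 near 500 and 3.41 near 150. Crybb2, the most abundant beta crystallin of the adult lens and one reported in retinal neurons, read 4962, 3724 and 5415 in labelled knockout arrays (1420536_at), against 509, 286 and 1062 in wildtype arrays. It varied most between arrays of one scale, by 1.33 times between labelled knockout arrays 1 and 2 and by 1.78 times between wildtype arrays 1 and 2. Its log2 difference was 3.11 ± 0.26 (SE, n = 3 per group), with 3.49 near 500 and 2.35 near 150. Crybb3 read 2289.8, 2141 and 2075 in labelled knockout arrays (1419005_at), against 389, 279 and 236 in wildtype arrays. As for the brightest Cryab probe set, array 3 was the dimmest of both groups, and its log2 difference of 2.88 ± 0.14 (SE, n = 3 per group) was 2.75 near 500 and 3.14 near 150.

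**Figure D2:**
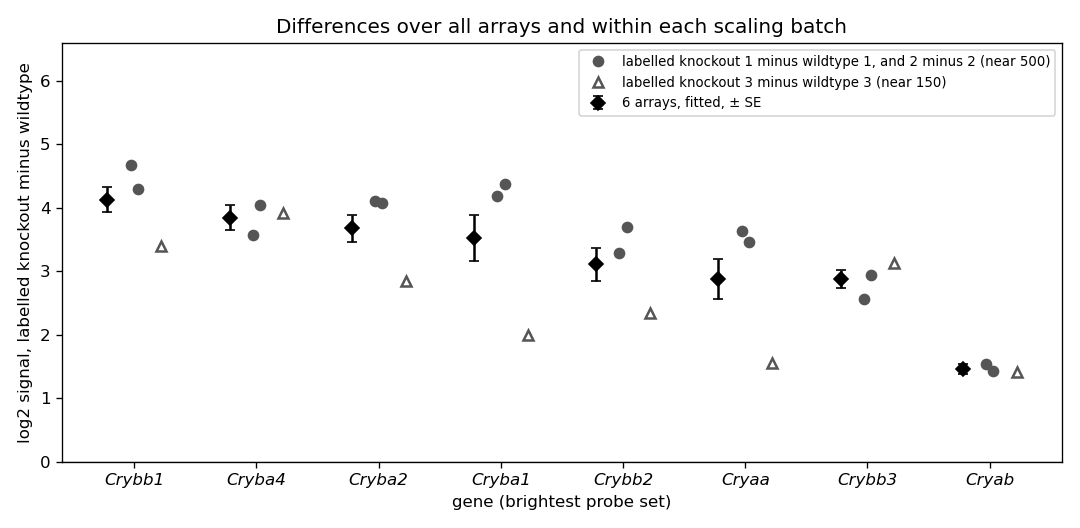
Log2 signal, labelled knockout minus wildtype, for the brightest probe set of each gene, in order of the fitted difference. Black diamonds are the fit of 6 arrays with SE, grey circles the differences between arrays of the same number scaled near 500, and open triangles that between the arrays scaled near 150; the triangles lie lowest for Cryba1 (2.00) and Cryaa (1.55) relative to their circles.

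Arrays 1 and 2 of each group share a scale. Labelled knockout array 1 was brighter than labelled knockout array 2 for all 8, by 1.03 to 1.33 times, and wildtype array 1 was brighter than wildtype array 2 for 7 of 8, by up to 1.78 times, with Crybb1 the exception. Over all kept probe sets array 1 was the brighter for 51.2% in labelled knockout and 50.7% in wildtype. All 8 genes share these 4 arrays, so this is a description of them, and nothing is read from the counts. These spreads between arrays 1 and 2 are below the smallest fold difference between the groups, the 2.75-fold of Cryab. Array 3 is not in them, and for Cryaa wildtype array 3 read 3.92 times the mean of wildtype arrays 1 and 2.

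Which crystallins were already bright in wildtype retina was read from each array's own distribution, since brightness of different probe sets is not a measure of their relative abundance. Each gene was read on its brightest probe set. Cryab was the one gene above the 90th percentile of all probe sets in each of the 3 wildtype arrays, at percentiles from 93.4 to 99.0, while all 8 genes were above it in each labelled knockout array. The second Cryab probe set, 1416455_a_at, was above it in 1 wildtype array, with percentiles from 88.2 to 98.5, and the third lay under the median of every array. In wildtype, 7 of 8 genes were above the array median on all 3 arrays, and Cryba4 was above it on 2, with 46.0 as its lowest percentile. Over the 3 wildtype arrays Cryaa ranged from percentile 74.4 to 99.1, and Cryba1 from 74.9 to 98.5. Crybb1, Cryba2, Crybb3 and Crybb2 had lowest wildtype percentiles between 55.6 for Crybb1 and 63.4 for Crybb2.

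The arrays scaled near 150 carried the alpha and beta crystallins above the level their scale would give. Array 3 had 0.300 times the trimmed mean of arrays 1 and 2 in both groups, and over all kept probe sets the median ratio of array 3 to the mean of arrays 1 and 2 was 0.340 in labelled knockout and 0.329 in wildtype. Single probe sets spread widely around it, from 0.00821 to 25.1 in labelled knockout and from 0.00614 to 7.96 in wildtype. The array median signal had ratios of 0.531 and 0.432. The batches thus differ by more than a common factor, and 0.300 is not the level of every gene. For the 8 crystallins this median was 0.986 in labelled knockout, from 0.576 for Cryba1 to 1.61 for Cryba4, and 2.38 in wildtype, from 0.706 for Crybb3 to 3.92 for Cryaa. Ratios above 1 were seen for 3 of 8 genes in labelled knockout and 6 of 8 in wildtype, against 8.61% and 4.82% of all kept probe sets. The 6 gamma crystallins had median ratios of 0.301 in labelled knockout, with 0 above 1, and 0.411 in wildtype, with 1 above 1. The 13 lens fibre genes had medians of 0.511 and 0.365, with 5 and 4 above 1. The ratio was larger in wildtype for Cryaa, Cryab, Cryba1, Cryba2, Crybb1 and Crybb2. This restates that for these 6 genes the log2 difference between the groups was smaller near 150 than near 500. In signal units the difference between the groups near 150 was 0.455 to 1.63 times that near 500, so 0 of the 8 had shrunk to 0.300 times it. For Cryba2 it was 3275 near 500 and 3420.1 near 150, and for Crybb1 4450.2 and 4189.7. What sets these arrays apart was not tested.

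**Figure D3:**
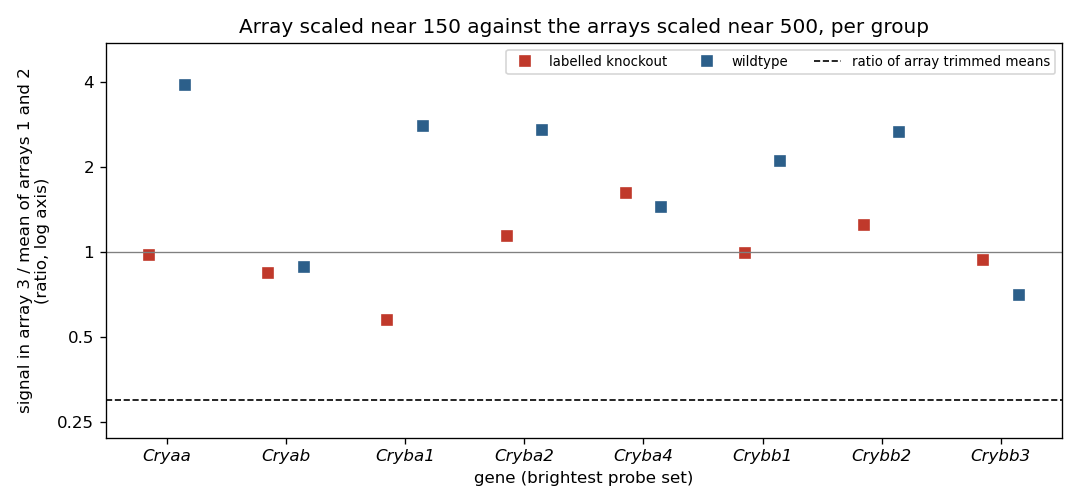
Signal in array 3, scaled near 150, over the mean signal of arrays 1 and 2, scaled near 500, for each gene on a log axis, with labelled knockout on the left in red and wildtype on the right in blue. The dashed line at 0.300 is the ratio of the arrays' trimmed means, and every point lies above it, highest for Cryaa in wildtype at 3.92.

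On chromosome 5 the members form a pair of direct neighbours, Cryba4 with Crybb1 (log2 differences 3.85 and 4.13), and another, Crybb2 with Crybb3 (3.11 and 2.88). Of the 24 other protein-coding genes that lie within 2 places of a member in the RefSeq order, 15 passed the filter, a set chosen after the values were seen. Their log2 differences ran from -0.61 to 0.43 with a median of -0.01. Of these 15, 1 was called, the RNA-binding protein gene Nufip2 beside Cryba1, which fell (-0.49, limma adjusted p = 0.0438), where 2.75% of all genes were called. Hspb2, the small heat shock gene next to Cryab, read 201, 145 and 43.6 in labelled knockout arrays and 111, 126 and 37.0 in wildtype arrays (log2 difference 0.43, limma adjusted p = 0.390).

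Other genes that belong with crystallins were counted on lists. All 6 measured gamma crystallin genes were higher, led by Crygb, Crygd and Crygf with log2 differences of 5.83 ± 0.16, 5.17 ± 0.19 and 4.52 ± 0.53 (limma adjusted p = 3.79e-07, 3.01e-06 and 0.00359), where 1.28% of all genes were called higher. Of 13 measured lens fibre genes other than crystallins, 5 rose and none fell, among them the beaded filament gene Bfsp1 (3.98 ± 0.38, adjusted p = 0.00112), the water channel gene Mip (3.80 ± 0.26, adjusted p = 0.000135) and the membrane protein gene Lim2 (3.08 ± 0.21, adjusted p = 0.000131), all from limma. In wildtype arrays Bfsp1 read 40.7, 28.6 and 6.00 and Mip 25.4, 20.3 and 182, where the filter's cut stood at a signal of 54.5. Grifin read 41.1, 24.6 and 73.5 in wildtype arrays, Gja3 33.6, 4.64 and 52.8, and the gamma crystallin gene Cryga 53.2, 38.0 and 4.06. Bfsp1, Mip, Grifin, Gja3 and Cryga thus passed the filter through the labelled knockout arrays. Of these, Bfsp1, Mip and Grifin are among the 5 lens fibre genes that rose and Cryga among the 6 gamma crystallins, so those counts rest partly on this. Both lists were chosen with earlier results of these data known, so these p are descriptive. The summed signal of the 13 was 28853, 27362 and 11325 in labelled knockout arrays and 21756, 20813 and 4939 in wildtype arrays, and that of the gamma crystallins 32543, 26898 and 11128 against 1308, 822 and 1264. That of the 8 alpha and beta crystallins was 44265, 39476 and 38125 in labelled knockout arrays and 5160.5, 4569 and 8512 in wildtype arrays. Most of the lens fibre sum came from Tdrd7, Hmgn3 and Fabp5, so it does not show how far the genes that rose most changed. In array 1 Tdrd7 read 8745 in labelled knockout and 9754 in wildtype, Hmgn3 5553 and 5446, and Fabp5 9676 and 3268. Mip read 495 and 25.4 there, Lim2 498 and 80.8, and Bfsp1 420 and 40.7. No measured gene of these lists was at 0. The other 8 lens fibre genes did not pass, among them Gja3 (2.87 ± 0.65, limma adjusted p = 0.0558). At an unadjusted p below 0.05 there were 7 of the 13, all higher, where 21.3% of all genes passed that threshold in either direction. The 5 that rose did so on the same arrays as the alpha and beta crystallins, and their part in the result was not tested.

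Of 13 measured transcription factors of the lens, 0 rose in limma at an adjusted p below 0.05, and Crebbp, a coactivator also used by retina, fell (-0.44 ± 0.086, limma adjusted p = 0.0363), a call that was lost with a replicate block. At an unadjusted p below 0.05 there were 6, of which 1 was higher and 5 were lower, where 21.3% of all 12536 genes passed that threshold in either direction. Singled out after their values were seen, Maf had 0.29 (limma adjusted p = 0.235), the eye factor Pax6 -0.07 (adjusted p = 0.615) and Hsf4, which drives lens heat shock genes, 0.47 (adjusted p = 0.416). Besides Crebbp, the genes with a lower p than any of these were all lower in labelled knockout. They were Mafg (-0.59), Nrl (-0.25), Ep300 (-0.27) and Prox1 (-0.33), with limma adjusted p of 0.0563, 0.0931, 0.176 and 0.185. Foxe3, Pitx3 and Sox1, which are closely tied to lens, lay under the filter. Of 8 measured lens epithelium genes, several of which are also retinal, 0 were called in limma and 2 had an unadjusted p below 0.05, near the 21.3% of all genes, and the 3 with the lowest p were Aqp1 (0.30), Gja1 (0.45) and Col4a3 (0.30), with adjusted p of 0.157, 0.184 and 0.429.

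The relatives of the alpha crystallins did not share their size of change. Among 7 measured small heat shock proteins and heat shock factors, 0 passed in limma (2 at an unadjusted p below 0.05, against 21.3% of all genes) and the median log2 difference was 0.43. Hspb6 had 0.31 (limma adjusted p = 0.0701), Hspb1 0.39 (adjusted p = 0.122) and Hspb8 0.43 (adjusted p = 0.301). Genes that carry a crystallin name for their origin or fold in other lenses gave a median of 0.18 over 5 measured, with 0 called in limma and 0 at an unadjusted p below 0.05. Of these Crym, a thyroid hormone binding protein, had 0.20 (limma adjusted p = 0.294), the quinone reductase gene Cryz 0.20 (adjusted p = 0.308) and Crybg3 0.12 (adjusted p = 0.693).

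Other tissues that border the retina were counted as well. On the pigment epithelium list 4 of 11 measured genes rose, led by Mlana (1.19 ± 0.16), Pmel (1.05 ± 0.13) and Tyrp1 (0.77 ± 0.091) with limma adjusted p of 0.00794, 0.00573 and 0.00397. Without labelled knockout array 1 this count was 2, and without wildtype array 2 it was 0. At an unadjusted p below 0.05 in limma there were 7 of the 11, all higher. Of all genes 1.28% were called higher. The 7 not called were Rpe65 (0.52), Tyr (0.55), Rdh5 (0.25), Ttr (0.27), Rlbp1 (0.13), Lrat (0.37) and Mitf (0.04). Their limma adjusted p were 0.107, 0.119, 0.241, 0.298, 0.350, 0.631 and 0.908. The summed signal of the 11 was 51336, 58268 and 3494 in labelled knockout arrays and 44463, 46132 and 2758 in wildtype arrays. Of the sum in labelled knockout array 1, Ttr gave 17768 and Rlbp1, which is also on the Müller glia list, gave 13537. On the list of ciliary body and iris 1 of 6 rose, the smooth muscle actin gene Acta2 (1.38 ± 0.15, limma adjusted p = 0.00225), and their sum was 3278, 3039.7 and 755 against 2126, 1943 and 427. At an unadjusted p below 0.05 in limma there were 2 of the 6, none lower. The 5 not called were Cpxm2 (0.63), Wfdc1 (0.48), Des (-0.44), Myh11 (0.34) and Opcml (-0.10). Their limma adjusted p were 0.239, 0.374, 0.444, 0.609 and 0.726. None of 3 measured genes of corneal and conjunctival epithelium was called in limma, nor was any at an unadjusted p below 0.05 (Tkt 0.18, Krt5 0.20, Krt4 -0.23, with adjusted p of 0.261, 0.788 and 0.788), and the corneal keratin gene Krt12 lay under the filter. Of 10 Müller glia markers 0 were called in limma and 4, all higher, had an unadjusted p below 0.05 (Cd44 0.50, Vim 0.20, Apoe 0.24, with adjusted p of 0.0921, 0.168 and 0.173). Of 9 rod photoreceptor markers 0 were called in limma and 5, all lower, had an unadjusted p below 0.05 (Cnga1 -0.39, Nrl -0.25, Prph2 -0.42, with adjusted p of 0.0577, 0.0931 and 0.0976). Of all genes 21.3% had an unadjusted p below 0.05. The part of these tissues in the crystallin result was not tested.

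**Figure D4:**
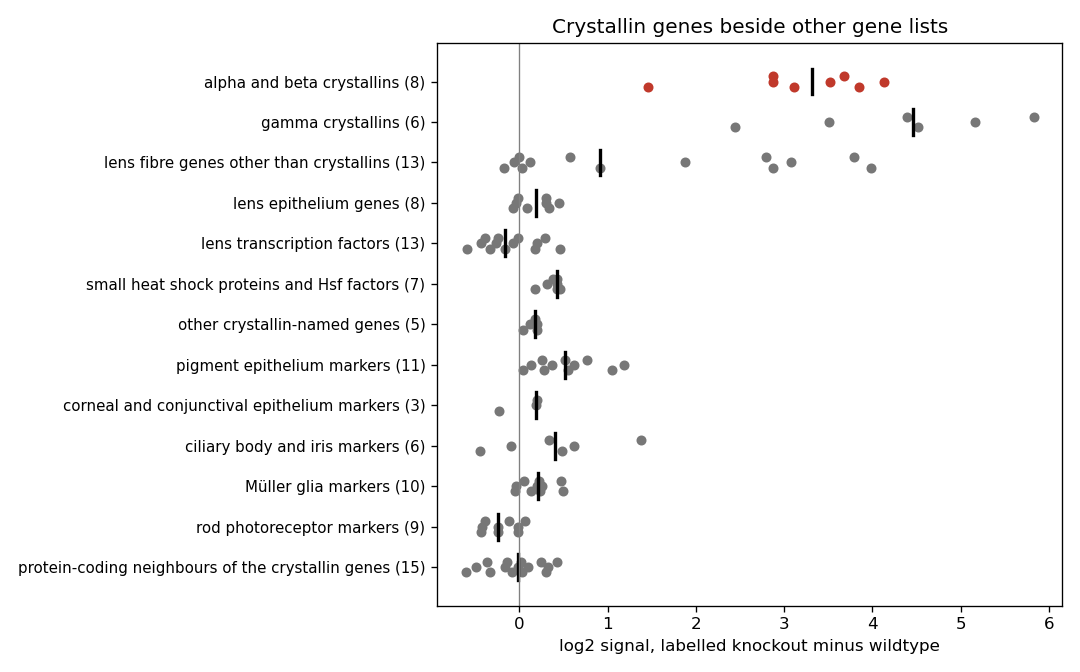
Log2 signal, labelled knockout minus wildtype, of every kept gene on each list, 1 point a gene, with a black bar at the list's median and the number of genes in brackets. The alpha and beta crystallins (red, median 3.32) and the gamma crystallins lie far to the right of 0, some lens fibre genes with them, and the protein-coding neighbours of the crystallin genes lie around 0.

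The genes outside the family whose pattern was most like it were found by the Euclidean distance between log2 profiles over the 6 arrays, each centred within its scaling batch, to the mean profile of the 8 members. The 10 nearest of all kept genes were Grifin (0.588), a galectin-related lens protein gene, Crygs (0.624), Lim2 (0.734), Mip (0.867), Crygn (1.17), Tmem26 (1.36), Cap1 (1.53), Bfsp1 (1.73), AI467606 (1.77) and 2900057B20Rik (1.82). The members themselves lay between 0.451 for Crybb2 and 2.18 for Cryab. Grifin read 284, 246 and 354 in labelled knockout arrays and 41.1, 24.6 and 73.5 in wildtype arrays, so that it too was brightest in wildtype array 3. Crygs read 8757, 6765 and 6023 in labelled knockout arrays and 606, 371 and 1072 in wildtype arrays. Its groups did not overlap, as held for 0.37% of kept probe sets, but Crygs was picked for likeness to a profile split by group. Cap1, an actin regulator gene of many tissues, read 2213, 2384 and 562 in labelled knockout arrays and 468, 365 and 282 in wildtype arrays, a log2 difference of 2.47 near 500 and 0.99 near 150. Likeness over 6 arrays that differ chiefly by group says little beyond a similar difference between the groups.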

How the data were processed

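The deposited values are intensities on a linear scale, 1 per probe set and array, made by the authors with software that the submitters' processing notes name as GCOS 1.4 and MAS5, with no role or order given. Of 45101 probe sets, 64 controls were left out. Names came from the platform annotation, in which 34945 probe sets had 1 symbol, and promoters from RefSeq (GRCm38.p6). Trimmed means (2% at either end) were 500.0 for arrays 1 and 2 and 150.0 for array 3 of each group, which defined the scaling batch. Log2 signals were kept where their mean was at or above the 40th percentile (27022 probe sets) and fitted with limma 3.58.1 in R 4.3.3 (variance trend, batch as a block, two-sided, Benjamini-Hochberg, threshold 0.05), after a test on simulated data. Each gene is represented by its brightest kept probe set. Fold changes of dim signals are approximate, since no detection limit is given.

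The members and lists were chosen with earlier results of these data known, so no p is given for a member, and the members' calls in the fit of all probe sets are counted only beside the share of all probe sets called. Named were all members, and of each list the 3 genes with the largest change among those past the threshold, or with the lowest p where none passed, and the 10 genes of nearest profile. Further genes of the lists are named outside this rule, with their values known. Deviations from the group means correlated at 0.57, 0.67 and 0.843 for arrays numbered 1, 2 and 3. These deviations include the scale that arrays of one number share, so they do not show that such arrays are pairs. Within the arrays scaled near 500 the correlation was 0.0153 for those numbered 1 and 2. Alternatives were other blocks, scales, filters and arrays. With 3 arrays per group, precision is limited by their number. The neighbours of the members were looked up in the RefSeq gene order after the values were seen.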

Additional observations from a re-analysis of the deposited data

How the results depend on the processing

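The differences of the 8 genes kept their direction in every alternative run. Their median was 3.32, the same with a replicate block, with no block and with the median over probe sets of a gene, and between 3.28 and 3.68 under the other alternatives that use whole sets of arrays, and it ran from 3.00 to 3.68 when each array was left out in turn. Neither this direction nor their calls are evidence of stability, since the genes were chosen for this contrast. The fit with no block called 0 probe sets in all (118 at an unadjusted p below 0.05), the crystallins included. The count of called probe sets over the array, 609, was 200 with a replicate block, which lost the call of Crebbp (0 lens transcription factors called), 405 with no filter (0 lens transcription factors) and 955 with a filter at the 60th percentile (2 lens transcription factors, 3 lens fibre genes and 1 rod gene). The arrays scaled near 500 alone gave 3687, with 1 lens epithelium gene, 5 lens transcription factors, 2 small heat shock genes, 1 corneal gene, 2 Müller glia genes and 5 rod genes called. With no block 0 genes of any list passed, gamma crystallins, lens fibre, lens transcription factors, pigment epithelium and ciliary body included. Quantile normalization within each batch called 1 rod gene, and counting any probe set of a gene called 1 Müller glia gene. Leaving out an array gave 121, 114 and 3710 called probe sets without labelled knockout array 1, 2 and 3, and 105, 77 and 3697 without wildtype array 1, 2 and 3. Over these, calls ran from 0 to 5 for lens transcription factors and for rod markers, 0 to 4 for pigment epithelium, 0 to 2 for small heat shock and for Müller glia genes, and 0 to 1 for lens epithelium and for corneal genes. Every fit without an array scaled near 150 rests on 4 arrays of one scale, and the cause of the other shifts was not tested. The Esrrb probe sets kept their direction and passed in none of the alternatives run.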
